A study of Mus musculus with 3 samples.

Results

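H3K4me3 peaks that were called only in the hippocampus of Huntington's disease model mice, away from every peak that both genotypes had, are the subject here. A peak of the HD list belonged to this set when no WT peak overlapped it by at least 1 bp and when over 10 kb separated it from the nearest HD peak that did overlap a WT peak, here called a shared peak. The set held 1274 of the 19631 HD peaks. HD peaks without any WT overlap numbered 1825, or 9.30% of the list, and 69.8% of them met the distance rule (95% interval 67.6 to 71.9%). The set as a whole was therefore 6.49% of the HD list. With the lists exchanged, 70.3% of the WT peaks without any HD overlap met the distance rule (67.4 to 73.1%). Of the 17806 shared HD peaks, 12643 lay over 10 kb from any other shared HD peak. Lying far from shared peaks was thus not particular to HD peaks without WT overlap. Because the members were chosen by the presence of a peak in one list and its absence from the other, their absence from the WT list is not a result.

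H3K4me3 is laid down by the SET1 and MLL family of methyltransferases and is concentrated at the starts of genes that are transcribed or poised for transcription. Its strongest and widest domains lie at CpG-rich promoters, while weak and narrow marks also occur at enhancers and at minor or little-used promoters. In brain tissue a weak mark can further come from a strong one carried by a small share of the cells. Bulk tissue cannot tell fewer marked cells from less mark in each cell.

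The HD library was made from hippocampi of adult male N171-82Q mice, a transgenic line that carries an N-terminal fragment of human huntingtin with an expanded glutamine repeat under the control of the mouse prion protein promoter. The WT library came from adult male littermates without the transgene, and both genotypes were C57/DBA F1 hybrids. Each list rests on 1 immunoprecipitation from tissue pooled from 3 mice, so no genotype had a replicate, and nothing below can be set against a spread between animals. Intervals are exact binomial or order-statistic 95% intervals over peaks, which cover counting error only. The labels state for the WT library, but not for the HD library, that its raw reads also belong to an earlier deposit, and they do not say whether the libraries were sequenced together. Any difference in preparation or sequencing cannot be told apart from genotype.

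Most members had low scores and were narrow, and so were WT-only peaks chosen by the same rule with the lists exchanged, given below. The members' median width was 1018 bp (interval 1001 to 1035, quartiles 863 and 1202 bp), with a range of 290 to 3521 bp. Each peak carries a score from the authors, and no source used here names what it measures. The members' median score was 69.4 (67.9 to 71.2) on a scale whose lowest value was 50.01 in the HD list. Scores of 50 to 60 were held by 421 members, 33.0%, and scores of 100 or more by 258 members. A score of 200 or more was reached by 17 members, 1.33% (0.779 to 2.13%). Together the members covered 1.36 Mb, 3.11% of the length of all HD peaks.

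HD-only peaks within 10 kb of a shared peak, 551 in all, had almost the same scores and were slightly wider. Their median score was 69.4 (66.3 to 71.6) and their median width 1085 bp (1048 to 1111). Over the distance to the nearest shared peak, from under 1 kb to over 500 kb, the median score of all HD-only peaks ran between 65.1 and 76.4 with no steady order, while the median width was 1132 bp for the 116 peaks under 1 kb away and 968 bp for the 245 peaks 100 to 500 kb away. Among the members, Spearman's rho was -0.04 between score and distance and -0.12 between width and distance (n = 1274 peaks of 1 library, given as a description).

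Shared HD peaks that likewise lay over 10 kb from any other shared HD peak, 12643 peaks, served as a comparison with the same isolation. Their median width was 2204 bp (2185 to 2222) and their median score 1484, above the 1367 of all 17806 shared HD peaks. Within score classes below 200 the widths were close. At scores of 50 to 60 the median width was 923 bp (903 to 958) for the members and 939 bp (909 to 964) for the isolated shared peaks. At scores of 100 to 200 the medians were 1219 bp (1173 to 1272) and 1260 bp (1240 to 1283). At these scores the intervals of the medians overlapped. The class of 200 or more has no upper bound, so scores within it were not matched. Its median widths were 1557 bp for 17 members (1266 to 2457) and 2379 bp for the isolated shared peaks (2360 to 2397).

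**Figure D1:**
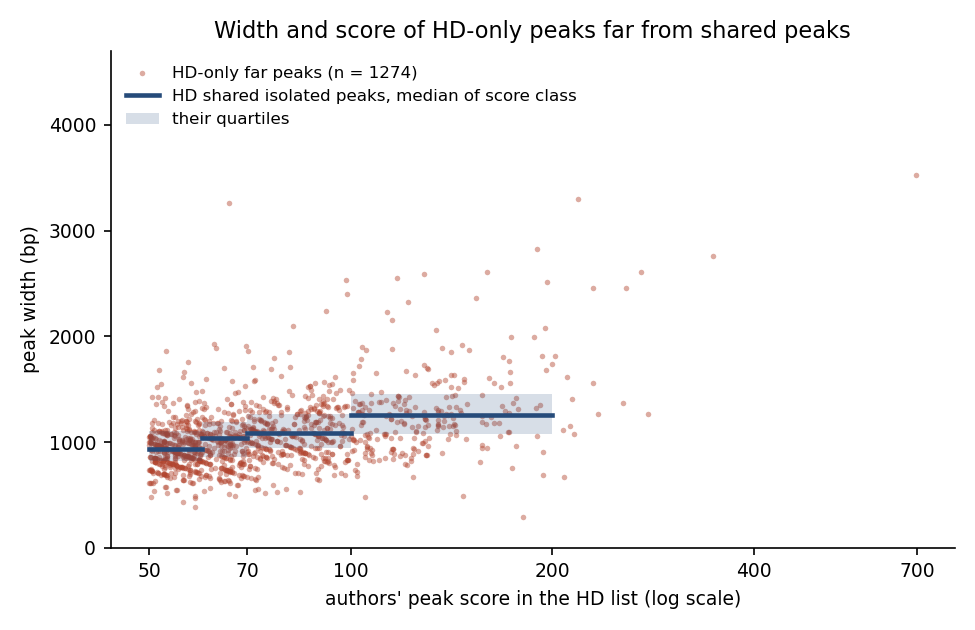
Width in bp against the authors' score (log axis) for the 1274 HD-only peaks over 10 kb from a shared peak, 1 point per peak, with the median (line) and quartiles (band) of isolated shared HD peaks in 4 score classes up to 200. Most members lie between scores of 50 and 100 within the band or close to it; no band is drawn above a score of 200, and the widest member spans 3521 bp.

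The highest scoring members varied in width. The top member was chr2:131762440-131765960, which scored 698.55 and spanned 3521 bp. The next, chr12:34641441-34644200, scored 346.89 and spanned 2760 bp. Of the 12 members with the highest scores, 6 were between 2456 and 3521 bp wide and the other 6 between 1072 and 1557 bp. The gap between these widths holds only among the 12. Below them, chr19:24973820-24975433 (score 209.91) spanned 1614 bp and chr14:4601501-4603311 (202.07) spanned 1811 bp. Each of the wide 6 was wider than over 90% of the isolated shared HD peaks whose scores were within 1.2-fold of its own. By that measure 35.3% of the members with a score of 200 or more were wide (14.2 to 61.7%; 6 of 17), against 8.27% of those with a score under 100 (6.65 to 10.1%; 84 of 1016) and 9.50% of all members (121 of 1274).

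The wide 6 were, beside the top members on chromosomes 2 and 12, chr7:31697282-31699891 (score 271.51), chr17:93601196-93603652 (257.17), chr9:87623974-87626429 (229.94) and chr9:54506692-54509994 (218.48). Their distances to the nearest WT peak ran from 14.6 kb for the member on chromosome 2 to 1545 kb for that on chromosome 17. The narrow 6 were chr17:35575455-35576720 (277.66), chr3:107385259-107386632 (254.82), chr1:182723584-182724851 (233.78), chr3:27215465-27217021 (229.74), chr7:29650702-29651773 (215.56) and chrX:33735527-33736930 (213.60). They lay between 13.1 and 82.5 kb from the nearest WT peak.

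The top member lay 14.5 kb from the nearest shared HD peak and 12.6 kb from another HD-only peak. The promoter that drives the transgene comes from the mouse gene Prnp, which the RefSeq table for assembly GRCm38.p6 places on chromosome 2 next to Prnd. The peak positions are in the older build mm9, so whether this member lies in Prnp was not analysed here.

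Width and score did not always go together. The widest members after the first were chr9:54506692-54509994 with 3303 bp, chr4:118213981-118217236 with 3256 bp, chr3:120587102-120589922 with 2821 bp and the second-ranked member on chromosome 12. The peak on chromosome 4 scored only 65.73, and 99.9% of the 1547 HD peaks within 1.2-fold of that score were narrower. That on chromosome 3 scored 189.70. At the other end, chr4:91067090-91067755 was 666 bp wide at a score of 208.20, and 0.172% of isolated shared HD peaks of like score were narrower; it was picked out after its values were seen. Over all members Spearman's rho between score and width was 0.41, and among those with a score under 100 it was 0.28, the same as in isolated shared HD peaks under 100 (rho 0.28, n = 890).

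Distances from members to shared peaks were close to those of shared peaks to each other. The median distance from a member to the nearest shared HD peak was 40.7 kb (38.1 to 44.3), and for isolated shared HD peaks the distance to the nearest other shared peak was 40.7 kb (39.9 to 41.6). Between 10 and 20 kb lay 22.3% of the members (20.03 to 24.7%), and over 500 kb lay 19 of them, 1.49% (0.900 to 2.32%). Among peaks with a score under 100 the medians were 42.1 kb (38.3 to 46.1) for the members and 48.1 kb (43.7 to 53.5) for the isolated shared peaks, and these intervals overlap. The median number of shared HD peaks in the 1 Mb around a member was 9, beside 16 around HD-only peaks within 10 kb of a shared peak and 10 other shared peaks around an isolated shared one. The distance to a shared peak is what parts the first 2 sets, so 9 against 16 is not a result. A window without any shared HD peak surrounded 19 members.

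The 5 members farthest from a shared peak included a group of 3 on chromosome 17, at 1544 to 1549 kb. The other 2 were chr3:3507644-3508819, with a score of 163.74 and 1288 kb to the nearest shared peak, and chr12:93976174-93976969, with a score of 51.80 and 888 kb. The nearest WT peak was 434 kb away from the chromosome 12 peak, so a WT-only peak lay closer to it than any shared one. Just inside the distance limit were chr9:44515855-44517286 at 10.004 kb with a score of 85.55, chr11:115012744-115013952 at 10.074 kb with 66.16 and chr19:5001315-5002762 at 10.087 kb with 143.23. Just outside it were chr11:103019743-103021066 at 9.993 kb with 155.59, chr2:90507271-90508479 at 9.975 kb with 60.62 and chr2:73410406-73411586 at 9.935 kb with 67.62. The widths of these 6 peaks, 1181 to 1448 bp, did not separate the sides of the limit.

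Most members stood alone, and some came in small groups. When members within 10 kb of each other were joined, 1181 remained single, 84 formed 42 pairs and 9 formed 3 groups of 3. Another HD-only peak, member or not, lay within 10 kb of 97 members, 7.61% (6.22 to 9.21%), within 1 kb of 31 and within 100 kb of 349, 27.4% (24.96 to 29.9%). Neighbouring peaks count for each other, so they are not independent, and the intervals of all such shares are too narrow. Members within 1 kb of each other formed 14 runs, with a median length of 2538 bp from end to end and a median highest score of 74.5. Joining each such run would leave 1259 members.

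WT-only peaks chosen by the mirror rule, 716 of the 18515 WT peaks or 3.87%, are given beside the members. All WT-only peaks made up 5.50% of the WT list. The far WT-only peaks were also narrow, but somewhat wider than the members. Their median width was 1096 bp (1076 to 1115), against 1018 bp (1001 to 1035), and the difference was not tested. Their median score was 64.6 (62.2 to 65.7), low on the scale of the WT list. Among HD peaks over 10 kb from another shared peak, 67.7% of those scoring 50 to 60 had no WT overlap. At scores of 200 or more 0.160% had none. In the WT list the shares without HD overlap in classes of the same numbers were 47.9% and 0.0196%. These classes fall on each list's own scale and the depth is unknown, so the shares are not comparable between lists. Within each list the share was far lower at the high scores. Of the members 7.61% and of the far WT-only peaks 2.65% (1.61 to 4.11%) had a peak of their own kind within 10 kb. Such shares grow with the number of peaks in a list. With the HD-only peaks cut to the 1019 highest scores, as many as the WT-only peaks, 716 of them were far and 5.59% had such a neighbour (4.02 to 7.53%). The cut left only higher scores on the HD side and all scores on the WT side. The sets therefore differed in more than library. At equal numbers the shares were 1.82% for HD (0.970 to 3.08%) and 0.559% for WT (0.152 to 1.42%) within 1 kb, and 19.4% for HD (16.6 to 22.5%) and 15.1% for WT (12.5 to 17.9%) within 100 kb. The intervals overlapped at 1, 10 and 100 kb, and the difference was not tested. This comparison was added after the values were seen.

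**Figure D2:**
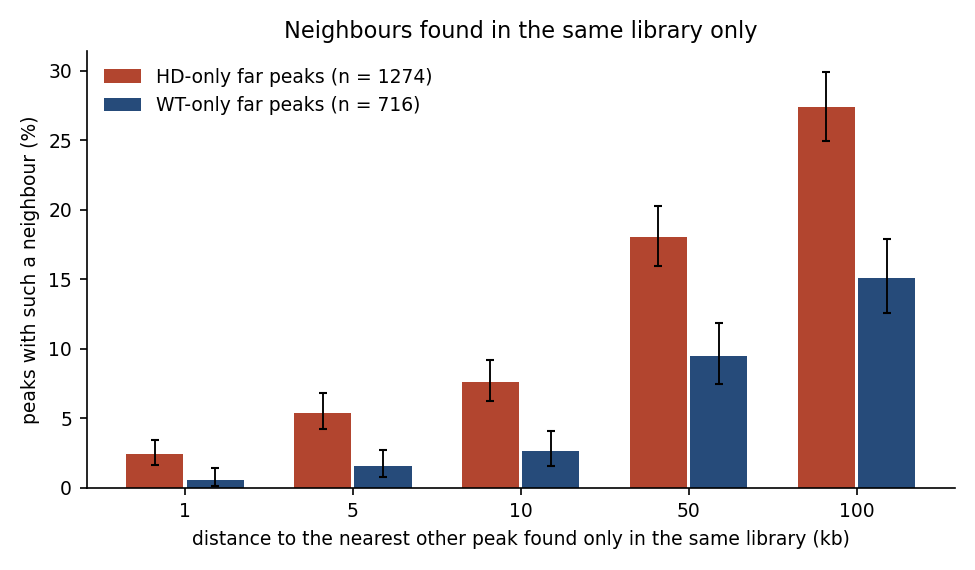
Share of far HD-only peaks (1274) and far WT-only peaks (716) that had another peak found only in the same library within 1, 5, 10, 50 or 100 kb. Bars start at 0 and carry exact 95% binomial intervals, which take neighbouring peaks as independent. At 10 kb the shares are 7.61% and 2.65%, with no adjustment for the unequal numbers of peaks.

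The 3 groups of 3 differed in score. On chromosome 17, chr17:93598192-93599160 (score 51.55), chr17:93599564-93600920 (90.81) and chr17:93601196-93603652 (257.17) followed each other with gaps of 403 and 275 bp. The scores rose along the chromosome, and the whole group lay over 1.5 Mb from any WT peak. On chromosome 3, chr3:34451181-34452000 (52.54) was followed 6.93 kb later by chr3:34458929-34460117 (74.10) and chr3:34460155-34461249 (73.59), which were 37 bp apart. On chromosome 13, chr13:113623309-113624171 (57.20), chr13:113625111-113625804 (52.70) and chr13:113630939-113631615 (59.74) all stayed close to the lowest score, with gaps of 939 bp and 5.13 kb.

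Among the 17 members with a score of 200 or more, 3 had another HD-only peak within 10 kb, on chromosomes 17, 7 and 11. The chromosome 7 member had one 2.69 kb away, and chr11:117693197-117694348 (212.27) had one 5.46 kb away. A pair of members on chromosome 9 both passed a score of 200: chr9:54523942-54525059 (207.37) lay 13.9 kb from the wide member at 54506692. The chromosome 11 member and the second chromosome 9 member were chosen after their values were seen.

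Larger stretches of the genome showed a few places with several members. Neighbouring shared HD peaks were over 20 kb apart in 12763 places. Of these stretches 1105 held a member, 956 of them a single one and 149 more than 1, and none held more than 4. A stretch on chromosome 7 of 172 kb held 4 members spread over 109 kb, with scores of 52.2 to 148.9, and a stretch of 556 kb on chromosome 3 held the group of 3 on that chromosome and 1 more member that scored 120.05. Neither held a far WT-only peak. By fixed megabase, 569 held 1 member, 200 held 2, and 2 held 6: the megabase from 35 Mb on chromosome 17, with 44 HD peaks in all, and that from 29 Mb on chromosome 7, with 41. A further 5 megabases held 5 members each. That from 4 Mb on chromosome 14 had 5 members among only 9 HD peaks, and the other 4 had 13 to 28 HD peaks. The places named here were chosen after their values were seen.

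Longer stretches more often held a member, while the number of members per Mb was lower in them. Of stretches of 50 to 100 kb, 7.08% held a member (6.23 to 8.01%), and of stretches over 1000 kb 18.8% did (15.1 to 23.0%). Densities were taken over the length in which the distance rule allows a member, without the 10 kb at each end. The members then numbered 1.91 per Mb in stretches of 20 to 50 kb, 1.46 at 50 to 100 kb and 1.13 at 100 to 200 kb. They numbered 0.641 per Mb at 200 to 500 kb, 0.345 at 500 to 1000 kb and 0.127 over 1000 kb. Far WT-only peaks numbered 0.649 per Mb in stretches of 20 to 50 kb and 0.112 over 1000 kb. Over the whole length of the stretches, ends included, the members' density was 0.760 per Mb at 20 to 50 kb and 1.05 at 50 to 100 kb, so the order of these classes depends on counting the ends. A far WT-only peak was held by 2.84% of stretches of 50 to 100 kb (2.30 to 3.47%) and by 17.5% of those over 1000 kb (13.9 to 21.6%). The interval for members stood above that for WT-only peaks in every length class up to 500 kb and overlapped it in the classes over 500 kb. There were 1274 members and 716 far WT-only peaks, and a larger set fills more stretches. Neither the shares nor the densities were adjusted for these numbers or for depth, so they do not separate the genotypes.

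**Figure D3:**
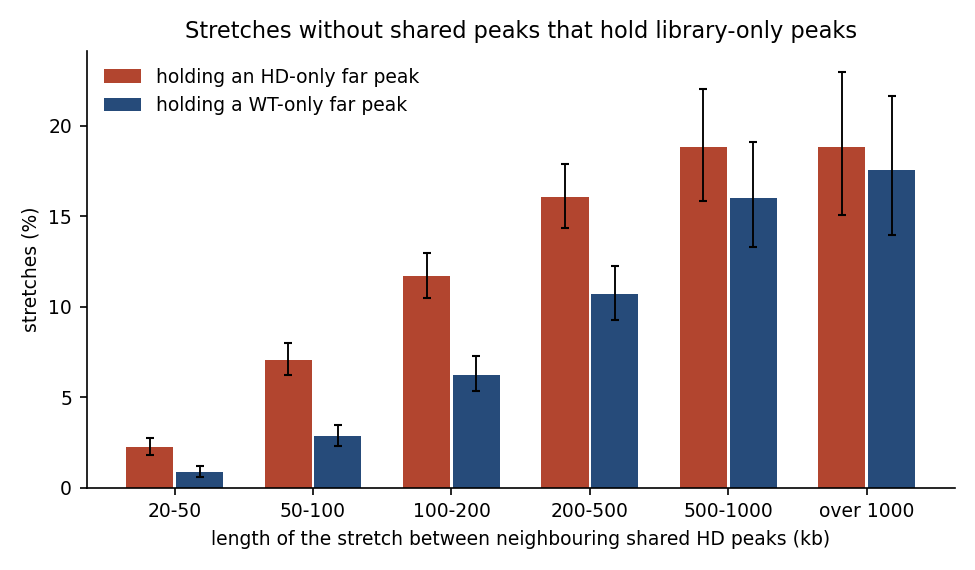
Share of the stretches between neighbouring shared HD peaks, by length class in kb, that held a far HD-only peak or a far WT-only peak. Bars start at 0 and carry exact 95% binomial intervals, with no adjustment for the unequal numbers of peaks. The shares stand apart at 50 to 100 kb (7.08% and 2.84%) and lie close together over 1000 kb (18.8% and 17.5%).

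Members and far WT-only peaks sometimes occupied the same stretch. Both occurred in 112 stretches, 10.1% of those with a member and 17.2% of those with a far WT-only peak. A far WT-only peak was present in 10.1% of the stretches with a member (8.42 to 12.1%) and in 4.62% of those without (4.25 to 5.02%), and longer stretches hold more of both. In stretches of 100 to 500 kb the shares were 9.28% (7.05 to 11.9%) and 7.84% (7.00 to 8.75%), whose intervals overlap. Over 500 kb they were 23.9% (18.1 to 30.4%) and 14.9% (12.6 to 17.5%).

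A WT peak lay within 10 kb of 21 members, 1.65% (1.02 to 2.51%), and for 17 of them the nearest was itself WT-only. The distance rule largely fixes both values. A shared WT peak overlaps a shared HD peak, and every shared HD peak lies over 10 kb from a member. In 5 cases the gap was under 1 kb. The closest was 71 bp, between chr11:23960747-23961442 in HD (score 52.58) and the WT peak chr11:23961514-23962413 (69.59). In the next, chr10:90463785-90464852 in HD (62.01) began 356 bp after a WT peak that scored 83.92. These pairs are peaks of both libraries side by side, each low on the scale of its own list. By the rule they count as HD-only and WT-only because no base is shared, and whether a pair is 1 region was not tested. They were chosen after their values were seen. None of the 21 members scored above 102.5.

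Members occurred on every chromosome. On the autosomes they made up 4.95% (chromosome 7, 69 peaks) to 8.66% (chromosome 18, 53 peaks) of the HD peaks of a chromosome, with 6.51% over all autosomes (6.17 to 6.87%). On the X chromosome 34 of 603 HD peaks were members, 5.64% (3.94 to 7.79%), an interval that holds the autosomal value. The X chromosome share of far WT-only peaks was 1.91% (0.957 to 3.39%), against 3.93% (3.65 to 4.23%) on the autosomes. The Y chromosome held 1 member, which scored 64.65 and spanned 744 bp. Median scores of members ran from 62.1 on chromosome 13 to 84.1 on chromosome 17.

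There were 1.78 times as many members as far WT-only peaks, 1274 against 716. On single autosomes the ratio ran from 1.03 on chromosome 16, with 36 members and 35 far WT-only peaks, to 2.52 on chromosome 17, with 63 and 25, and it was 3.09 on the X chromosome, from 34 and 11. The depth of the libraries is unknown, and its part in these counts was not tested.

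**Figure D4:**
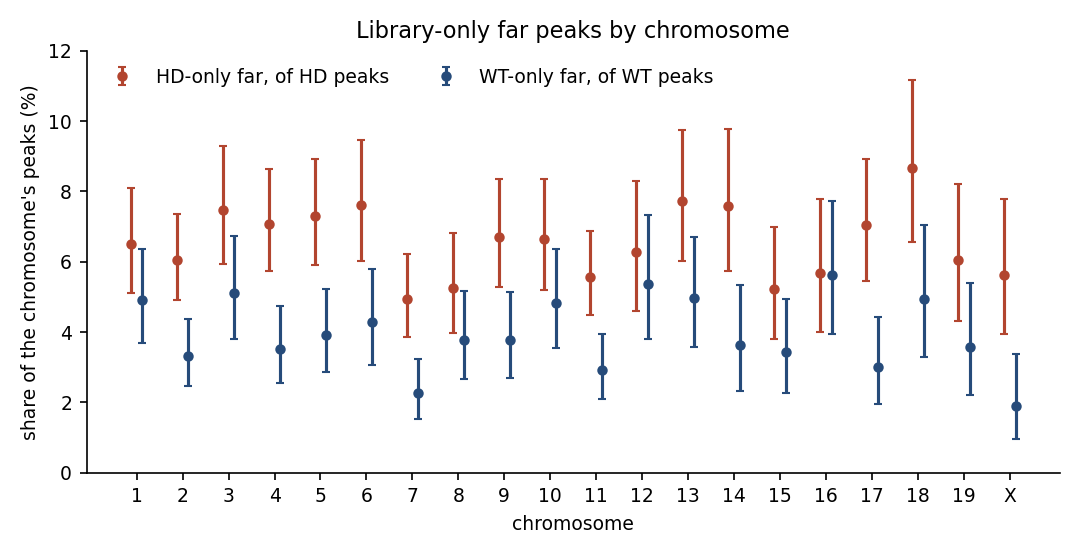
Far HD-only peaks as a share of HD peaks and far WT-only peaks as a share of WT peaks, for the 19 autosomes and X; the Y chromosome, with 5 HD peaks, is left out. Points are shares and bars exact 95% binomial intervals; the HD share is the higher on every chromosome shown, by least on chromosome 16 (5.68% and 5.62%).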

How the data were processed

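The authors deposited 1 H3K4me3 peak list per library, with positions and a score. The lists have no header, and the peak names carry the word MACS. For that caller, neither version nor settings nor control are stated by any source used here. Per the submitters' processing notes, SAMtools, BWA 0.5.9 and CASAVA 1.8.2 handled the reads, and the build was mm9, also called NCBIM37. Reads were single ends of 50 bp. The deposited score runs from 50.01 to 3233.06 in each list. No file names its unit or gives the depth behind it, so scores rank and describe peaks within a list. A score class or a cutoff of 100, where applied to both lists, falls on each list's own scale. Counts and shares taken by it are not comparable between lists. The input library was not analysed here.

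Positions are mm9, counted from 1. Gaps, shares and medians were computed in Python 3.11.15 (scipy 1.17.1, pandas 2.3.3, numpy 2.4.6), and figures in matplotlib 3.10.9. The code was tested on simulated lists. With 1 library per genotype no p-value was computed. Far WT-only peaks follow the same rule with the lists exchanged. The named members are the 12 highest scores, the 5 widest, the 5 farthest from a shared peak, the 3 largest groups and 3 peaks on each side of the distance limit. Members, rule and comparison sets were chosen with earlier results of these data known. The gene and promoter tables used the assembly GRCm38.p6, so neighbouring genes, tissue markers, transcription starts and sequences of the peaks were not analysed here.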

Additional observations from a re-analysis of the deposited data

How the results depend on the processing

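Of the 54 alternative values computed, 33 stayed within the interval of the value reported, or within 1.5 times it for the count. Some alternatives changed the definition and had to move the value, such as another neighbour distance. Others left the set nearly unchanged, such as autosomes only. The tally is therefore not a measure of stability. With a distance over 50 kb the set held 553 peaks, with a median width of 978 bp, 5.42% with another HD-only peak and 0.723% with a WT peak within 10 kb, and a ratio to far WT-only peaks of 1.49. With a minimum score of 100 it held 258 peaks, with a median width of 1245 bp, a median score of 128.6 (both raised by the cutoff itself), 2.33% with another HD-only peak, 0.388% with a WT peak within 10 kb, and a ratio of 3.44, which has no reading between libraries because the cutoff falls on each list's own scale. The share with another HD-only peak nearby, 7.61% as reported, was 5.41% when peaks up to 1 kb apart were joined and 5.59% at equal numbers of library-only peaks, the 1 alternative chosen after seeing the data; it was 5.42% within 5 kb, 18.1% within 50 kb and 27.4% within 100 kb. The share with a WT peak within 10 kb, 1.65% as reported, was 2.72% when WT peaks had to cover 50% of the HD peak, 14.8% with a distance over 5 kb, and 0% by construction when the distance was measured to WT peaks; it was 0.863% within 5 kb and 58.0% within 50 kb. Counting any WT peak within 1 kb as a counterpart or using autosomes only moved none of the 6 quantities out of its range. The shares near transcription starts and the CpG content were not run, because the gene table is of another build. No paired analysis was possible because there is only 1 library for each genotype. With unknown depth, a WT peak that was not called cannot be read as an absent mark.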
